A study of Homo sapiens with 4 samples.

Results

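The 10 genes described here encode proteins with which tumour cells restrain immune cells. They are CD274 (PD-L1), PDCD1LG2 (PD-L2), CD276 (B7-H3), VTCN1 (B7-H4), CD47, LGALS9 (galectin-9), PVR (CD155), NECTIN2 (CD112), ENTPD1 (CD39) and NT5E (CD73). They were chosen by name, as a set of checkpoint ligands and adenosine enzymes, and make up 10 of the 19970 protein-coding genes of the annotation. For each gene, H3K27ac peaks were collected within 1 kb of the start site of its canonical transcript and within 100 kb of its gene body.

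The peaks came from H3K27ac ChIP-seq of MDA-MB-231 and Hs578T, established human breast cancer cell lines, with 2 libraries of each line and 1 peak list per library. Per the labels, all 4 libraries came from cells that had been starved for 8 h, received TWEAK at 10 ng/ml for 48 h, and were then kept for 72 h after its removal, a wash-off that the study's text gives as longer. TWEAK is a cytokine of the TNF family, and Fn14 is its receptor. No untreated cells entered the comparison, so the values describe treated and washed cells of both lines and no effect of the cytokine.

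Acetylation of histone H3 at lysine 27 is found at active promoters and enhancers. PD-L1 and PD-L2 bind PD-1 on T cells, CD47 binds SIRPα on macrophages and inhibits phagocytosis, and PVR and nectin-2 bind TIGIT and related receptors on T and NK cells. CD39 and CD73 act in sequence on extracellular nucleotides, CD39 converting ATP to AMP and CD73 converting AMP to adenosine, which dampens immune cells through its receptors. PD-L1 is inducible by interferon-γ through IRF1 and is known for its expression in triple-negative breast cancer.

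By number of peaks, the lists did not group by line. Outside chromosome Y and unplaced sequences, the list of MDA-MB-231 replicate 1 was small, at 209 peaks. The lists of MDA-MB-231 replicate 2, Hs578T replicate 1 and Hs578T replicate 2 were large, at 43353, 46330 and 44920. The small list had no peak in any of the 10 gene windows, and it called 0.0601% of protein-coding promoters. Values below are therefore given for the 3 large lists, always in that order, and MDA-MB-231 rests on a single informative library. Read depth is unknown for each of the 4 libraries, so a missing peak in the small list does not show that acetylation was absent. Of the marker genes examined, both housekeeping genes (GAPDH and ACTB) and 4 of 5 mesenchymal genes (VIM, CD44, AXL and FN1) had a promoter peak in every large list. The remaining mesenchymal gene, SPARC, had one in Hs578T replicate 1 alone. By contrast, 0 of 5 immune genes (PTPRC, CD3E, MS4A1, CD14 and ITGAM) had one in any list. Of 6 epithelial and luminal genes, EPCAM alone was marked, in MDA-MB-231 replicate 2 and Hs578T replicate 1.

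In hg38 with GENCODE release 44, the ligands of PD-1 are CD274 at chr9:5450503-5470566 (plus) and PDCD1LG2 at chr9:5510531-5571282 (plus). The other B7 proteins are CD276 at chr15:73683966-73714514 (plus) and VTCN1 at chr1:117143587-117210960 (minus), followed by CD47 at chr3:108043091-108091862 (minus) and LGALS9 at chr17:27629798-27649560 (plus). The nectin family members are PVR at chr19:44643798-44666162 (plus) and NECTIN2 at chr19:44846175-44889223 (plus), and the adenosine enzymes ENTPD1 at chr10:95711779-95877266 (plus) and NT5E at chr6:85449584-85495791 (plus), with the strand in parentheses.

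To show what the promoters look like, the 250 bases before the start site are printed for 5 of the genes, 5′ to 3′ on the strand of the gene, from the RefSeq promoter table of build GRCh38.p14. CD274 at chr9:5450292-5450541 (plus strand) is shown for its interferon motifs, which are in capitals. NT5E at chr6:85449833-85450082 (plus strand) and CD47 at chr3:108091032-108091281 (minus strand) are shown as acetylated promoters, with every CG dinucleotide in capitals. LGALS9 at chr17:27630938-27631187 (plus strand) and ENTPD1 at chr10:95755913-95756162 (plus strand) are shown in the same way as promoters without a peak.
CD274: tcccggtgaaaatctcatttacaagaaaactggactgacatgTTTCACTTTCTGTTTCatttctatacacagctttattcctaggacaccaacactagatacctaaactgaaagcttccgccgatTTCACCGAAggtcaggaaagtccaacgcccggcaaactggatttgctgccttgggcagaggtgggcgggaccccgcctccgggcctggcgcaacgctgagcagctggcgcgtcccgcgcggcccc
NT5E: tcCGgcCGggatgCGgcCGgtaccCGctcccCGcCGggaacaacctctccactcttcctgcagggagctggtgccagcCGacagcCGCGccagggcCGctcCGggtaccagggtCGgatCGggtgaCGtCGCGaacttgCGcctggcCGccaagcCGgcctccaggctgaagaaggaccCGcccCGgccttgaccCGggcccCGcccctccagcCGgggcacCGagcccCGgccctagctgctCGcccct
CD47: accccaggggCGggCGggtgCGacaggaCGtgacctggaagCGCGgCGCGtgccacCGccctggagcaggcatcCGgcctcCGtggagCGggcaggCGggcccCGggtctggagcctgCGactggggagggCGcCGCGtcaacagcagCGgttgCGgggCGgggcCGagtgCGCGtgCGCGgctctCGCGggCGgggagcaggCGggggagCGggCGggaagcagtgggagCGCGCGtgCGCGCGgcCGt
LGALS9: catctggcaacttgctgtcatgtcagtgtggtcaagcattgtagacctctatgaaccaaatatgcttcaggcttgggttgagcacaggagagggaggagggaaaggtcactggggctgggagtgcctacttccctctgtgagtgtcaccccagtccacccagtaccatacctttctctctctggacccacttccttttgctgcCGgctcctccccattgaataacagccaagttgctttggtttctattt
ENTPD1: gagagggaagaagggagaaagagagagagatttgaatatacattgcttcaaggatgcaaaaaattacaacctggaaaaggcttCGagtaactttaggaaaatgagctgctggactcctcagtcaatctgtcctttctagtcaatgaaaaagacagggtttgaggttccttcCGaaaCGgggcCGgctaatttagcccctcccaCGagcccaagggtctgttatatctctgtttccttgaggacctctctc

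The printed NT5E stretch holds 28 CG dinucleotides and that of CD47 holds 39, against 1 in LGALS9 and 5 in ENTPD1. The second set of sequences consists of 200-base windows inside acetylated regions far from the genes, read from the plus strand of hg38, with each match to the AP-1 motif (TGAGTCA or TGACTCA, the same site on both strands) in capitals. Each window was placed where its peak, as shared by the large lists, holds most AP-1 matches, so it is not typical sequence. Of the genes not printed, the most enriched shared peak away from start sites held 0 matches at CD47. It held 0 at CD274 and PDCD1LG2, for which it is the same peak, 1 at CD276 and 3 at NECTIN2. The NT5E window at chr6:85404803-85405002 and the PVR window at chr19:44588530-44588729 lie in the most enriched peak of each locus. The LGALS9 window at chr17:27552474-27552673 lies in the peak nearest to LGALS9 that all 3 large lists share, in an intron of KSR1.
NT5E upstream: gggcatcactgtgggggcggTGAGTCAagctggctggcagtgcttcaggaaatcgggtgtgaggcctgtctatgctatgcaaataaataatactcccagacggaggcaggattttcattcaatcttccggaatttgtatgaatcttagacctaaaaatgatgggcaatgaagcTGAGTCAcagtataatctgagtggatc
PVR upstream: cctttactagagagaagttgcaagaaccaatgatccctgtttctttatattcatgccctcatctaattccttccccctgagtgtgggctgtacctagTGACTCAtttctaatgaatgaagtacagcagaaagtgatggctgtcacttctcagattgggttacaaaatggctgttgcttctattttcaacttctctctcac
LGALS9 upstream: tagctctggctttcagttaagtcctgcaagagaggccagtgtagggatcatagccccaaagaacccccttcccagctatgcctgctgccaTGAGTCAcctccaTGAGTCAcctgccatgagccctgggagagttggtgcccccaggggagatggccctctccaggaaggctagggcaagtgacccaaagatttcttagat

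To ask which of the genes carried the mark of an active promoter, the peaks within 1 kb of each start site were examined. CD274, PDCD1LG2, CD276, CD47, PVR, NECTIN2 and NT5E were marked in all 3 large lists, and VTCN1, LGALS9 and ENTPD1 were marked in none. The 7 of 10 marked genes stood beside 55.6% of all protein-coding genes marked in every large list, and beside 58.1%, 58.2% and 56.4% in the lists taken one by one. The 3 unmarked genes stood beside 40.7% of coding genes with no promoter peak in any large list. Per line, 3.5 ± 4.95 of the 10 genes were marked in MDA-MB-231 (SD, n = 2, with 0 and 7 in its libraries) and 7 ± 0 in Hs578T (SD, n = 2). The lines were not tested against each other, because the smallest two-sided p of an exact permutation test on 2 against 2 libraries is 0.333.

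**Figure D1:**
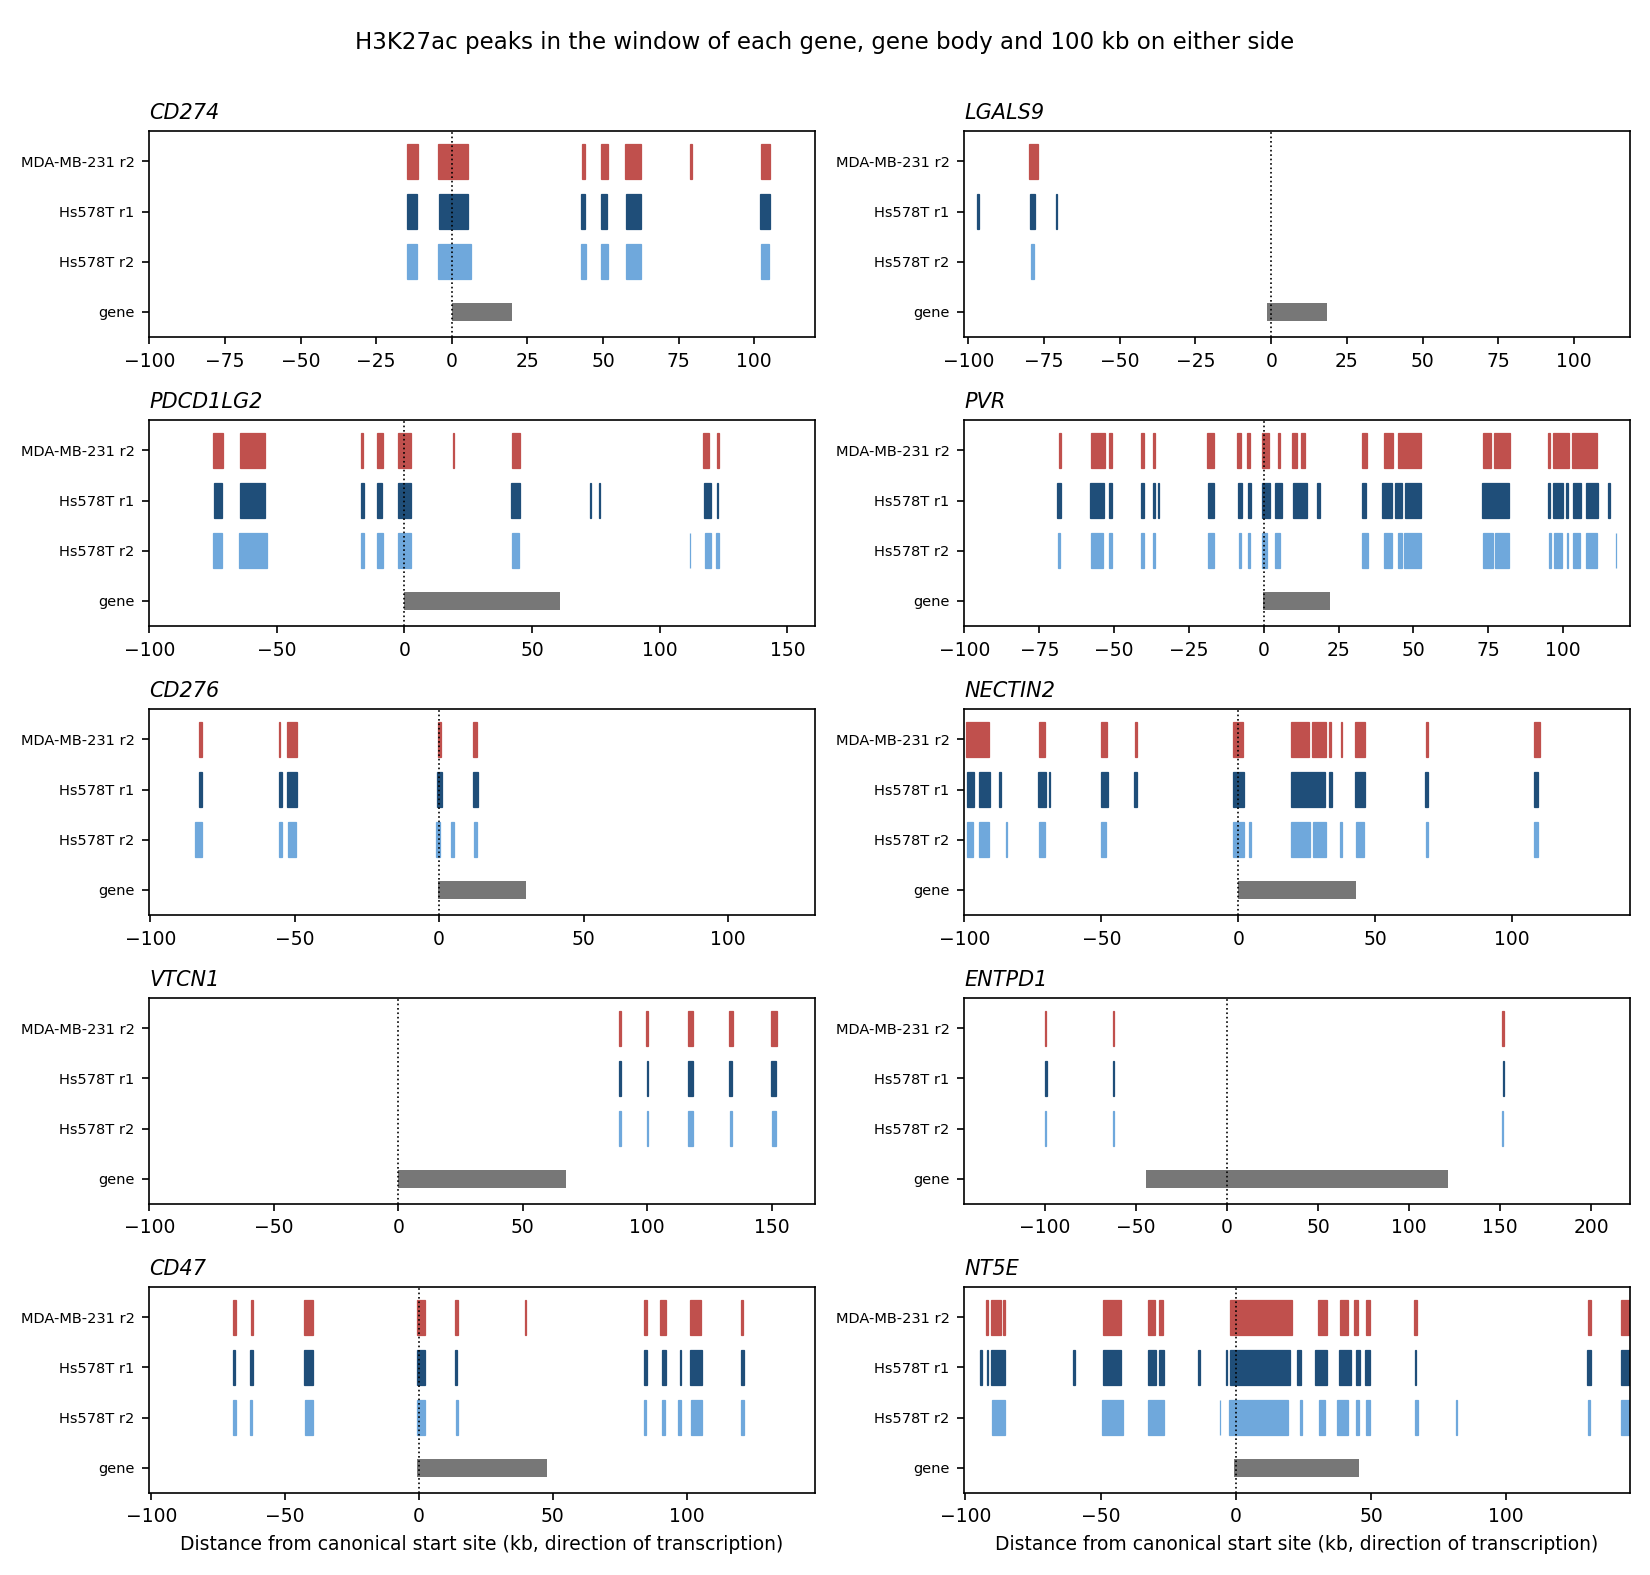
H3K27ac peaks around the 10 genes, by distance from the canonical start site in kb in the direction of transcription (x axis), with a row for each of the 3 large lists (MDA-MB-231 r2 is replicate 2; Hs578T r1 and r2 are replicates 1 and 2). Coloured boxes are peaks drawn to scale, grey bars are gene bodies and the dotted line is the start site. Peaks lie at the start site of 7 genes, and the bodies of VTCN1, LGALS9 and ENTPD1 hold none.

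Enrichment differed widely between the marked promoters within each list. MACS2 gives each peak a fold enrichment, the signal over the local background. It was ranked within a list, and outside the merged regions below its size was not compared between lists. PDCD1LG2 had a promoter fold enrichment of 19.7, 24.4 and 20.5 and lay at the 91.9th, 97.9th and 98.2nd percentile of all promoter peaks of the same list. PVR, the poliovirus receptor, had 20.9, 16.7 and 12.9 and lay at the 93.8th, 89.2nd and 87.7th percentile. NT5E had 15.7, 17.4 and 14.6, at the 83.2nd, 90.5th and 92.2nd percentile. These 3 promoters therefore ranked among the stronger ones in all 3 large lists.

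NECTIN2 lay nearer the middle, with a fold enrichment of 13.2, 10.9 and 8.62 and percentiles of 73.9, 69.0 and 66.1. CD274 fell below the median promoter peak in each large list, with 7.04, 7.91 and 6.10 and percentiles of 33.5, 48.4 and 41.7. CD47 and CD276 were the least enriched of the marked promoters. CD47 had 5.94, 4.80 and 3.87 at percentiles of 24.2, 19.0 and 13.4, and CD276 had 5.62, 4.85 and 4.07 at percentiles of 21.4, 19.7 and 15.8. The median fold enrichment over all marked coding promoters was 9.18, 8.13 and 6.86 in the same lists, and 4 of the 7 marked genes exceeded it in each. The order of the 7 genes by fold enrichment was identical in both Hs578T lists.

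The width of the promoter peaks told the genes apart in another way. NT5E had a single peak of 23082, 22199 and 21645 bp, at the 99.8th percentile of promoter peak widths in each large list. It began 2234, 2150 and 2332 bp before the start site and ran 20847, 20048 and 19312 bp into the gene. CD274 had a peak of 9818, 9759 and 10870 bp, at the 98.3rd, 97.6th and 98.6th percentile, that began 4474, 4399 and 4648 bp before the start site and ended 5343, 5359 and 6221 bp after it. The CD274 promoter was thus among the widest acetylated promoters while its fold enrichment was below the median. If the peaks were called in broad mode, as their 9 columns imply, the fold enrichment is an average over the peak, so width and enrichment are not separate measures.

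PDCD1LG2 had a peak of 5094, 5166 and 4997 bp, and NECTIN2 one of 3773, 3858 and 3808 bp, both spread about evenly on either side of the start site. The CD47 peak of 2997, 2942 and 2738 bp lay mainly inside the gene, with 2301, 2313 and 2155 bp after the start site and 695, 628 and 582 bp before it. PVR had 2212, 2669 and 1673 bp, and CD276 had the narrowest peak of the 7 in MDA-MB-231 replicate 2 and Hs578T replicate 1, with 1276, 1541 and 1705 bp. The median over all marked coding promoters was 1792, 1897 and 1804 bp. CD276 lay below it in every large list and PVR in Hs578T replicate 2, so 6, 6 and 5 of the 7 genes were wider than the median.

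**Figure D2:**
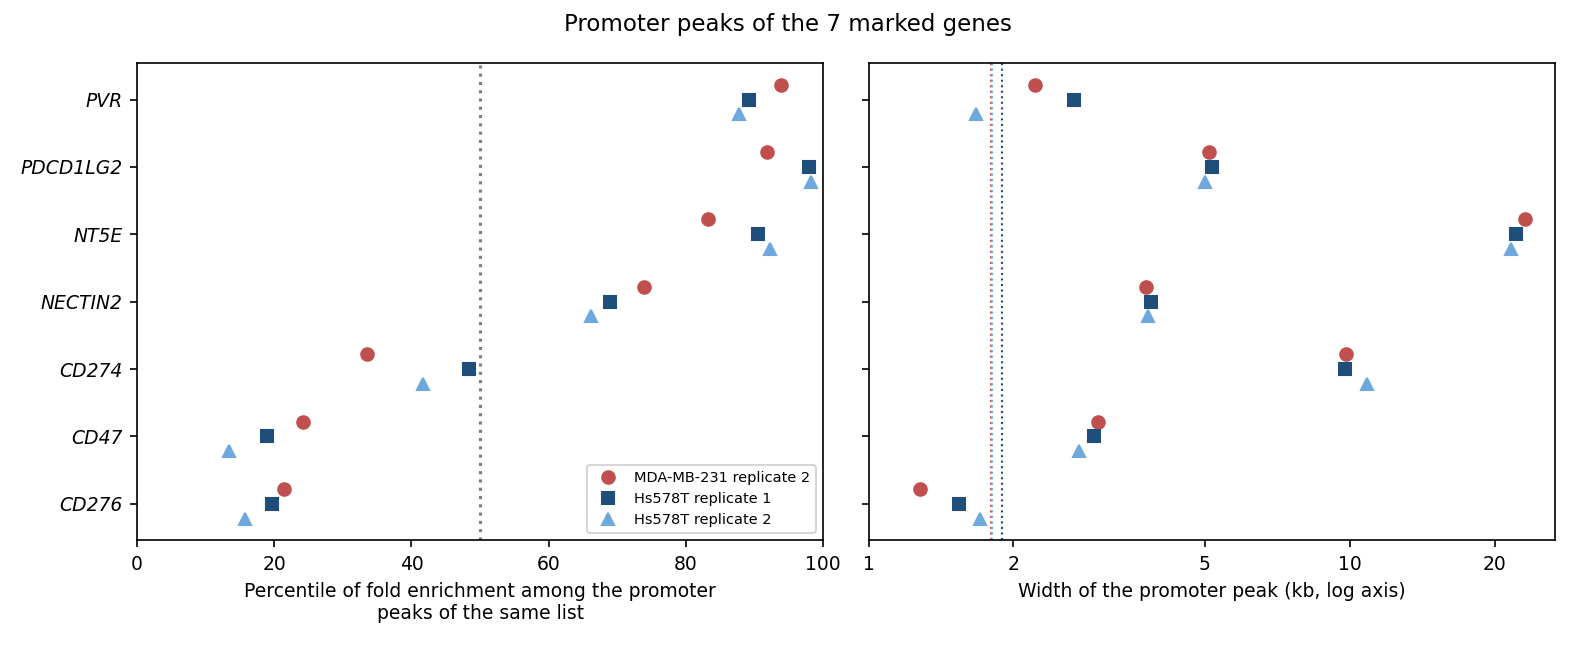
Promoter peaks of the 7 marked genes in the 3 large lists. Left, the percentile of a peak's fold enrichment among all promoter peaks of its list, with the dotted line at the median. Right, the width of the peak in kb on a log axis, with dotted lines at the median width of each list (1792 to 1897 bp). NT5E and CD274 are widest, and CD274 combines a wide peak with a percentile of 33.5 to 48.4.

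The sequence of the promoters was examined next. The RefSeq table matched 9 of the 10 genes and 14546 coding genes in all, and each stretch ran from 250 bases before to 50 bases after the start site. CpG observed over expected, the ratio of CG dinucleotides counted to the number that the C and G content would give, was 1.01 in CD47, 0.910 in CD274, 0.904 in NT5E, 0.888 in NECTIN2, 0.795 in PVR and 0.764 in CD276. It was 0.463 in ENTPD1, 0.272 in VTCN1 and 0.104 in LGALS9. The 6 marked genes with a value did not overlap the 3 unmarked ones. Over all matched promoters, 75.9% of those with a ratio of at least 0.6 were marked in every large list (7727 of 10179), against 18.1% of those below it (791 of 4367). The split among the 9 genes thus followed the same direction as that of coding genes at large.

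**Figure D3:**
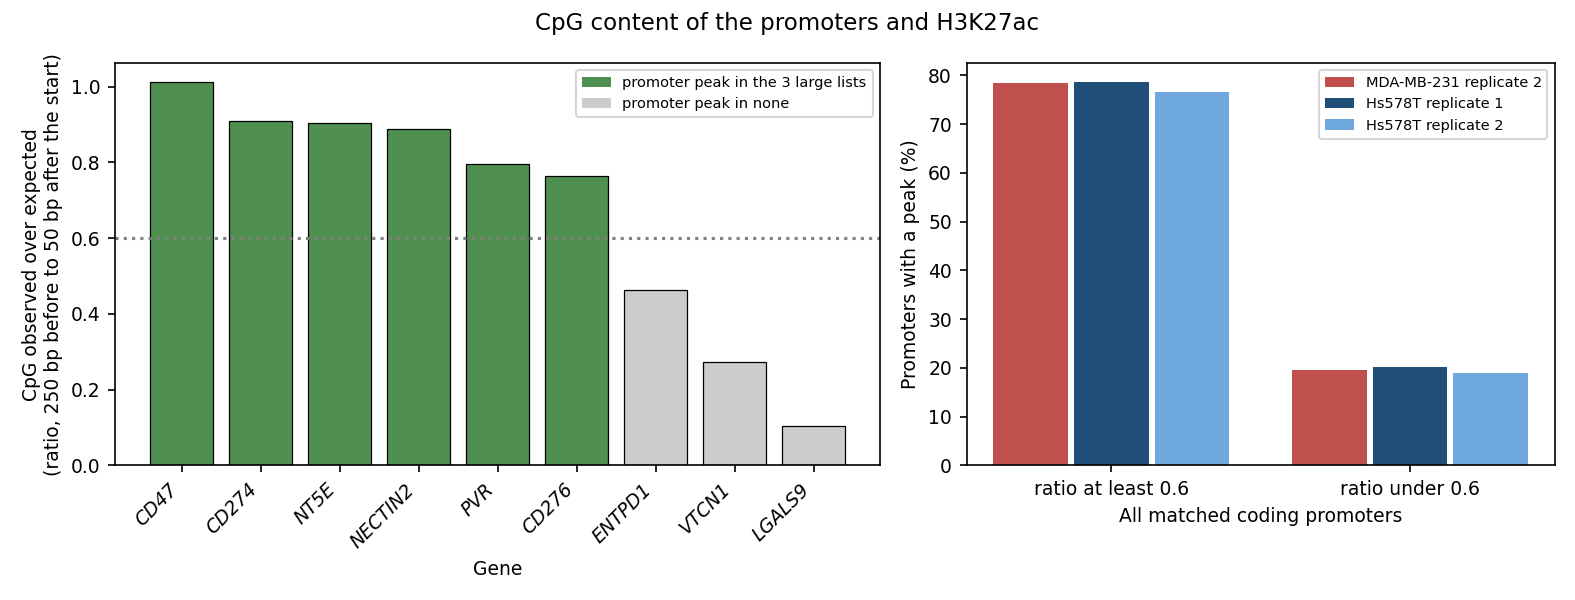
Left, CpG observed over expected (ratio) in the promoter of the 9 genes matched in RefSeq. Green bars are genes with a promoter peak in the 3 large lists, grey bars genes with none, and the dotted line is at 0.6. Right, the percentage of all matched coding promoters with a peak, by list, at a ratio of at least 0.6 (76.5% to 78.6%) and below it (19.0% to 20.2%).

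Motifs of the interferon pathway were searched in the same 300-base stretches, on both strands. The interferon-stimulated response element (ISRE) was taken as GAAA and GAAA separated by any 2 bases, and the gamma-activated site (GAS) as TTCNNNGAA. The CD274 promoter held overlapping ISRE matches starting 208 and 202 bases before the start site and a GAS match starting 125 bases before it, as the capitals above show. An ISRE match was present in 3.12% of matched coding promoters and a GAS match in 6.68%. At least 2 ISRE matches together with a GAS match were present in 6 of the 14546, CD274 included. That combination is the one seen in CD274, with overlapping ISRE matches counted separately, so its rarity is a description and no test. LGALS9, which had no promoter peak, held an ISRE match that starts 9 bases before its start site and reaches across it. VTCN1 held an AP-1 match just after its start site, and TGAGTCA or TGACTCA was present in 3.50% of matched coding promoters. The promoters of CD276, CD47, PVR, NECTIN2, NT5E and ENTPD1 held no match to the ISRE, GAS, AP-1 or NF-κB motif in these stretches, NF-κB having a match in 6.42% of promoters. A match or its absence describes the letters of this window only, and binding was not measured.

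To describe the surroundings, peaks were then collected over each gene body and 100 kb on either side. Merged, these windows spanned 2.34 Mb in 8 stretches and held 78, 88 and 80 peaks, which covered 202, 216 and 193 kb. In Hs578T that was 84 ± 5.66 peaks and 204222 ± 16321 bp (SD, n = 2), and in MDA-MB-231 39 ± 55.2 peaks and 101158 ± 143059 bp (SD, n = 2), since its replicate 1 had none.

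PVR stood highest, with 24.3%, 26.3% and 19.7% of its window covered, at the 99.0th, 98.9th and 97.8th percentile of all coding genes in the same list. Its window held 20, 24 and 22 peaks, of which 6, 5 and 4 were nearer to its start site than to that of any other coding gene. NT5E followed with 21.7%, 24.6% and 22.7%, at the 98.5th, 98.6th and 98.7th percentile, and 63.4%, 69.4% and 61.7% of the NT5E gene body itself was covered. In Hs578T replicate 2 the order was turned, with NT5E above PVR. NECTIN2 had 15.1%, 15.6% and 13.3% of its window covered, CD274 had 11.6%, 11.4% and 11.8%, and PDCD1LG2 had 10.96%, 11.3% and 11.4%. CD274 and PDCD1LG2 were within 1 percentage point of each other in each list, and their windows overlap.

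CD47 had 7.61%, 6.88% and 6.99% of its window covered, still above the coding-gene median of 3.96%, 4.37% and 4.002%. CD276 lay close to that median, with 3.12%, 3.64% and 4.44%, below it in MDA-MB-231 replicate 2 and Hs578T replicate 1 and above it in Hs578T replicate 2. The 3 genes with no promoter peak lay below the median in each large list. VTCN1 had 2.77%, 2.48% and 2.34% covered, LGALS9 had 1.24%, 1.35% and 0.564%, and ENTPD1 had 0.484%, 0.583% and 0.494%. The gene bodies of these 3 genes held no peak in any large list, which was the case for 29.9% of coding genes.

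**Figure D4:**
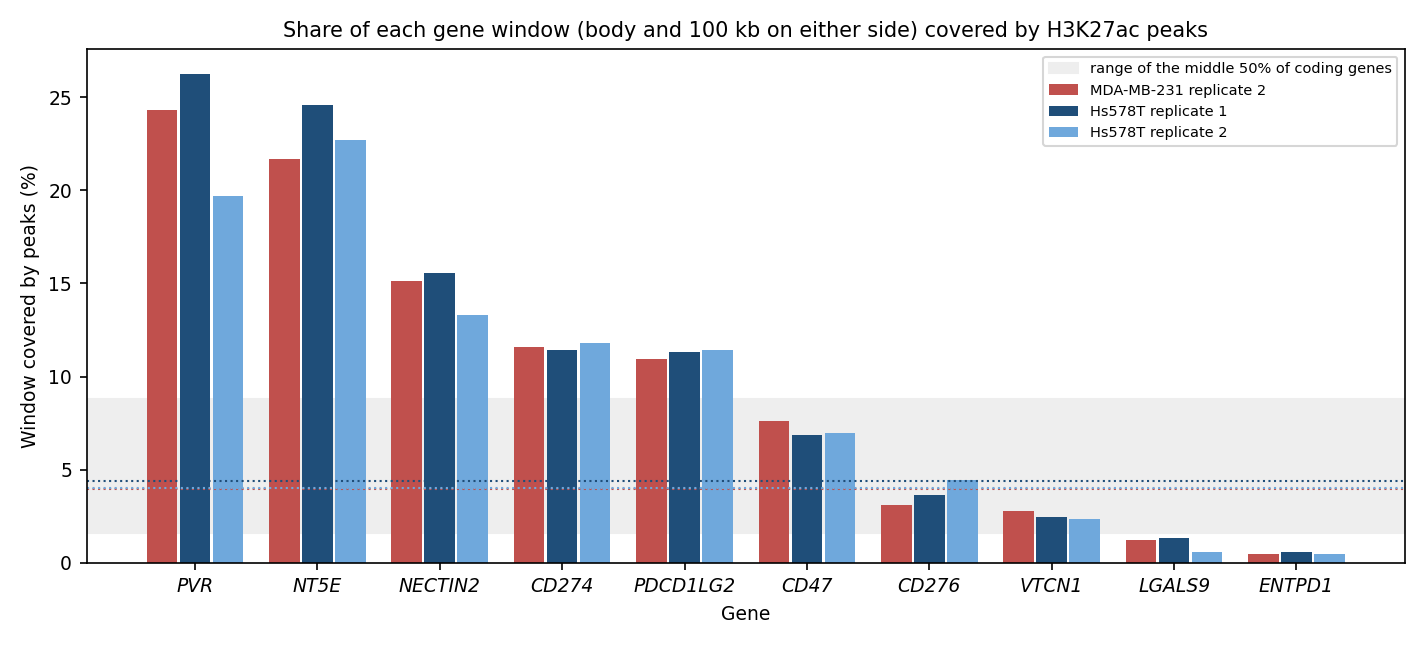
Percentage of each gene's window, the gene body and 100 kb on either side, that is covered by H3K27ac peaks in the 3 large lists (bars). Dotted lines are the medians of all 19970 coding genes by list, and the grey band spans their middle 50% over the 3 lists. PVR and NT5E reach 19.7% to 26.3%, and LGALS9 and ENTPD1 lie below the band.

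CD274 and PDCD1LG2 are neighbours on chromosome 9, with start sites 59.989 kb apart, so the same peaks served both windows. All of the 7, 6 and 6 peaks in the CD274 window also lay in the PDCD1LG2 window. Between the promoters, peaks about 43.4 and 50.2 kb downstream of the CD274 start site were called in every large list, with a fold enrichment of 6.63, 7.45 and 5.76 at the former and 9.08, 9.65 and 7.32 at the latter. Another shared peak lay inside an intron of PDCD1LG2, 43.7, 43.4 and 43.6 kb from its start site, with 5.07, 6.61 and 6.44. On the other side of CD274, the promoter of its neighbour PLGRKT had a peak with 15.5, 15.4 and 11.8. The strongest peak of this stretch was the PDCD1LG2 promoter itself, which made PDCD1LG2 the 1 gene of the 10 whose own promoter was the most enriched peak of its window in each large list.

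NT5E lies in a stretch with few other coding start sites, and 12, 16 and 11 of the 14, 18 and 14 peaks in its window were nearer to its start site than to that of any other coding gene. The most enriched was an intergenic peak 45.7 kb upstream, in which the printed window with a pair of AP-1 matches lies. Its fold enrichment was 34.2, 38.7 and 29.7, rank 163 of 43353 peaks, 78 of 46330 and 130 of 44920. A further upstream peak 88.8, 87.9 and 87.9 kb away had 16.3, 15.9 and 13.8. Inside the gene, intronic or exonic peaks near 40 kb from the start site had 7.64, 9.31 and 6.999. Each of these was less enriched than the peak 45.7 kb upstream and, like it, was called in all 3 large lists.

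PVR had its most enriched peak 55.5, 55.7 and 55.7 kb upstream of the start site, in intergenic sequence, where the printed PVR window lies. This peak was nearest to the start site of another coding gene, IGSF23. Its fold enrichment was 33.4, 35.8 and 30.5, at rank 176, 129 and 109 of the list. Next came a peak 41.7, 41.2 and 41.5 kb downstream, in intergenic sequence and also nearest to another coding gene, with 25.6, 27.4 and 25.6. Both exceeded the PVR promoter in each large list. NECTIN2, which lies 202 kb further along the same strand, had its most enriched peak inside an intron, 22.5, 25.5 and 22.8 kb from the start site, with 21.6, 22.6 and 18.5. That peak was nearest to the start site of TOMM40. Of the 12, 13 and 13 peaks in the NECTIN2 window, 1, 1 and 2 were nearest to NECTIN2. In Hs578T replicate 1 that peak was 12483 bp wide, where the other lists called separate peaks of 6442 and 4875 bp, and of 6892 and 4759 bp. The windows of PVR and NECTIN2 shared 1, 3 and 3 peaks, for which the nearest coding gene was BCL3, which encodes an atypical IκB protein.

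CD47 had no other coding start site with a peak in its window, and 9 of its 10 peaks in each large list were nearest to it. The most enriched lay 91.2, 91.5 and 91.4 kb downstream of the start site, beyond the end of the gene, with 14.2, 10.4 and 8.71. That was over its own promoter in each list, as was a peak 41.2, 41.3 and 41.2 kb upstream with 7.21, 8.17 and 6.85. A peak 62.6, 62.6 and 62.7 kb upstream with 7.89, 5.98 and 6.28 also exceeded the promoter. So did a peak 103.3, 103.6 and 103.6 kb downstream with 6.55, 5.99 and 5.49. CD276 had an intronic peak 12.5 kb from its start site with 5.21, 5.14 and 4.24, close to the value of its promoter. The most enriched peak of its window was the promoter of NPTN, which encodes neuroplastin, 51.0, 50.9 and 51.0 kb upstream, with 13.02, 16.2 and 14.2.

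Around the unmarked genes, peaks at the promoters of other coding genes made up all 3 in the ENTPD1 window, 2 of 5 in the VTCN1 window and 0 in the LGALS9 window, in each large list. The 3 peaks in the ENTPD1 window lay at the promoters of ALDH18A1, TCTN3 and CC2D2B. The peak nearest to the canonical ENTPD1 start site was 62.2 kb away at TCTN3, with a fold enrichment of 5.02, 4.70 and 4.91. RefSeq lists a further ENTPD1 start site 61.978 kb upstream of the canonical one, and that site lay 240, 268 and 255 bp from the TCTN3 peak, whose assignment between both genes was not tested. The nearest peak to VTCN1 was 88.6, 88.7 and 88.7 kb from its start site, at the promoter of TRIM45. LGALS9 had a single shared peak, 78.5, 78.6 and 78.8 kb upstream in KSR1, with 4.77, 5.85 and 4.58, and this peak holds 3 AP-1 matches, of which the printed window shows a pair.

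To compare the lists within these windows, overlapping peaks of the 3 large lists were merged into 93 regions. Of these, 66 were called in all 3 large lists, or 71.0% (95% Wilson interval 61.1% to 79.2%, counting error only), beside 74.8% of 50576 regions across the genome. Regions of VTCN1 (5 of 5) and ENTPD1 (3 of 3) were all shared, while NT5E had 11 of 19, NECTIN2 8 of 15 and LGALS9 1 of 3. In both Hs578T lists but not MDA-MB-231 replicate 2 were 2 regions (2.15%, beside 5.51% across the genome), 1 downstream of CD47 and 1 inside NT5E. They had a highest fold enrichment of 2.87 and 2.84. Conversely, 2 regions (2.15%, beside 3.79% across the genome) appeared in the large MDA-MB-231 list alone. They lay inside CD47 with 2.63 and inside PDCD1LG2 with 3.06. The 20 regions called in a single list had a highest fold enrichment between 2.38 and 3.69, whereas the 66 shared ones reached 3.13 to 38.7 with a median of 7.03. Each value is the highest over the lists that call a region, so it sets lists side by side and favours regions called in more lists. By this measure, regions that differed between lists were weak ones, and whether they differ between the lines was not tested.

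Next, AP-1 motifs were counted in distal peaks, those over 2.5 kb from any start site, AP-1 being a transcription factor that cytokines of the TNF family can activate. In the windows of the 10 genes, 25 of 51, 25 of 55 and 26 of 55 such peaks held the motif, or 49.0%, 45.5% and 47.3%. Over all such peaks of the lists the shares were 51.9%, 51.1% and 50.3%, within the Wilson intervals of the gene windows (35.9% to 62.3%, 33.0% to 58.5% and 34.7% to 60.2%). The NF-κB motif was present in 19.6%, 18.2% and 20% of the peaks around the genes and in 17.2%, 17.2% and 16.4% of all. The ISRE was present in 25.5%, 29.1% and 23.6%, against 24.2%, 24.6% and 24.1%. Counted over whole peaks, these shares were close to those of distal peaks in general. In the central 500 bp of the peaks, AP-1 was present in 33.3%, 21.8% and 20% around the genes and in 32.0%, 30.7% and 30.4% of all, and the ISRE in 3.92%, 5.45% and 5.45% against 9.23%, 9.17% and 9.12%. The shares of all distal peaks lay within the Wilson intervals of the gene windows there too.

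By gene, PVR had AP-1 in 8 of 15, 7 of 17 and 7 of 18 distal peaks and NT5E in 6 of 11, 7 of 14 and 6 of 11. CD274 had it in 1 of 4, 2 of 3 and 1 of 3, and CD47 in 2 of 9, 3 of 9 and 3 of 9. ENTPD1 had no peak over 2.5 kb from a start site in its window.

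Genes of the same pathways were examined from lists by function. Of 15 further adenosine genes, 7, 6 and 6 had a promoter peak, and 6 had one in every large list, or 40.0% beside 55.6% of coding genes. Among those 6, the mean over the large lists of the within-list percentile of promoter fold enrichment was highest in PNP, which degrades purine nucleosides, with a fold enrichment of 18.2, 11.9 and 8.83. ADK, which phosphorylates adenosine, exceeded PNP in both Hs578T lists with 12.3 and 11.3, in a peak that also holds the start site of AP3M1. The mean percentile was lowest in SLC29A1, an equilibrative nucleoside transporter, with 8.13, 3.37 and 3.84, although ENPP1 lay below it in MDA-MB-231 replicate 2 with 6.98. ADA, which deaminates adenosine, was marked in MDA-MB-231 replicate 2 alone, with 3.04. Of the 4 adenosine receptors, ADORA2B was marked in every large list with 13.5, 11.7 and 9.79, and ADORA1, ADORA2A and ADORA3 in none. ENTPD2 and ENTPD3, relatives of ENTPD1, were also without a promoter peak.

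Of 16 further checkpoint ligands, 9, 8 and 8 were marked and 8 in every large list, or 50%, near the 55.6% of coding genes. By the same mean percentile, HMGB1, a ligand of TIM-3, ranked highest of these 8 with 14.8, 14.9 and 9.44, and VSIR, which encodes VISTA, lowest with 3.90, 4.82 and 4.64, although TNFRSF14 and NECTIN1 lay below it in Hs578T replicate 2. ICOSLG was marked in MDA-MB-231 replicate 2 alone, with 3.21. CD80 and CD86, the ligands of CD28 and CTLA-4, were among the 7 without a promoter peak in any large list. Of 13 receptors, which are chiefly genes of immune cells, 2 were marked in every large list and 11 in none, beside 55.6% and 40.7% of coding genes. These were CD160, with 24.2, 18.4 and 16.0, and CD96, with 8.42, 5.94 and 6.69, and PDCD1, TIGIT and SIRPA were among the 11 without a peak.

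Of 9 regulators of PD-L1 and CD47, 9, 9 and 8 were marked, and 8 were marked in every large list, or 88.9% beside 55.6% of coding genes. QPCTL, which modifies CD47 so that it binds SIRPα, ranked highest with 16.7, 14.0 and 12.1, in a peak that also holds the start site of SNRPD2. By mean percentile JAK1 ranked lowest of the 8, with 6.04, 5.51 and 3.52. CMTM4, a relative of the PD-L1 stabilising protein CMTM6, had 4.45 and 2.86 and no peak in Hs578T replicate 2.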

How the data were processed

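H3K27ac was measured by ChIP-seq in 4 libraries, 2 each of MDA-MB-231 and Hs578T, grouped by their titles. The study describes its ChIP-seq replicates as biological. The submitters' processing notes name Trimmomatic, Bowtie2, MACS2, deepTools and hg38, and the study describes subtraction of input DNA and removal of blacklisted regions with bedtools. Tool versions and peak-calling settings are not given in the sources used here, and broad mode was inferred from the 9 columns. Each deposited peak carries a score, a fold enrichment (a ratio over local background), and −log10 p-value and −log10 q-value, all made by the authors. The score equals 10 times −log10 q without decimals. Read depth is not known, and calls also depend on the input library, so fold enrichment was ranked within a list. The exception is the highest value of a merged region, which is taken over lists.

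Peaks on chromosomes 1 to 22 and X were joined to GENCODE release 44 start sites with Python 3.11.15, counting any overlap of at least 1 bp. Interval functions were tested on simulated data. Sequence came from hg38 and the RefSeq promoter table. Where an interval is given or referred to, it is a 95% Wilson interval (scipy 1.17.1), and other percentages carry none. A library with under 1000 peaks was called small. Named genes outside the 10 were the highest and lowest of each functional list by mean within-list percentile among genes marked in every large list, unmarked examples, cell type markers and neighbours of the 10 genes. ADORA2B and the other adenosine receptors, ADA, ADK, AP3M1, ENPP1, ICOSLG, TNFRSF14, NECTIN1, CMTM4, SNRPD2 and KSR1 were named after their values were seen. Some genes of the lists are not reported here and were left out of the counts. The 10 genes and the lists were chosen with earlier results of these data known. Alternatives covered promoter and flank windows, basic start sites, stronger peaks, overlap, merging, central motifs and left-out replicates.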

Additional observations from a re-analysis of the deposited data

How the results depend on the processing

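A value counted as moved when it changed by over 1 SD between the replicates (covered bases), by over 1.5 times (counts), or out of its Wilson interval (shares). Covered bases in MDA-MB-231 had an SD wider than their mean, so this could not flag them, although they ran from 0 to 202316 with a replicate left out and were 43906.5 with a 10 kb flank. The same 7 genes were marked in each large list with promoter windows of 500 bp or 2.5 kb, with all basic start sites and at −log10 q of at least 2. In the strongest 50% of each list by score, CD276 lost its promoter peak in all 3 large lists and CD47 in 1 of them. MDA-MB-231 means depend on which library is left out, with 0 to 7 marked genes and 0 to 78 peaks in the windows, and MDA-MB-231 replicate 1 supplies the lower end. Flanks of 50 kb and 10 kb gave 25.5 and 13.5 peaks in MDA-MB-231 and 53 and 25.5 in Hs578T, by construction, and the strongest 50% gave 20 and 42. Covered bases in Hs578T were 140950 and 90546.5 at those flanks and 158776 in the strongest 50%. The share of regions in every large list was 81.0% in the strongest 50% and 55.9% with at least 50% overlap of both peaks, and 71.0% to 82.1% with a replicate left out. AP-1 in the central 500 bp was found in 33.3%, 21.8% and 20% of distal peaks around the genes, beside 32.0%, 30.7% and 30.4% of all. In the strongest 50% it was found in 59.1%, 70.8% and 65.2%, beside 67.8%, 67.5% and 66.8% of all. Where a value moved other than by construction, the cause was not tested. No paired analysis was possible because the labels give replicate numbers but no pairing between the lines, and no result comes from a test. Unknown read depth and single-library calling limit every statement on a missing peak.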
